A study of Mus musculus with 6 samples.

Results

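Lung fibroblasts were compared with tail tip fibroblasts gene by gene, to describe how cells of the same class taken from an internal organ and from the skin-covered tail differ in the genes for their surface, their secretions, their metabolism and their regulation. The lung side held 2 libraries (lung Ad-Cre and lung Ad-GFP) and the tail tip side 2 libraries (tail tip Ad-Cre and tail tip Ad-GFP), which are 4 of the 6 libraries of the series. The other pair came from cardiac fibroblasts and served only as a check. All cells were mouse fibroblasts in culture, labelled wild type, grown with 10% fetal bovine serum and taken for poly(A) RNA 48 h after an adenovirus was added. The virus carried the recombinase Cre in 1 library of each origin and green fluorescent protein in the other, so every library had been exposed to a virus and no untouched culture stood beside them. The labels describe Ad-Cre as a knockout of Gata4 and Ad-GFP as its control, and give no strain, age, sex or number of animals. Nothing in them says that the libraries of an origin came from separate cultures, so p-values measure the spread between these libraries, which may be technical.

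The deposited table gave whole read counts for 57180 mouse gene identifiers, and 17270 of them had enough reads to be tested. The 4 libraries held between 26170316 and 32316417 reads. Levels are given as CPM, a gene's reads scaled to a fixed sum of reads per library. A pair of levels for an origin is that of its Ad-Cre and its Ad-GFP library, in that order. A gene was called when edgeR's quasi-likelihood test gave it a Benjamini-Hochberg adjusted p under 0.05 for lung minus tail tip, with the virus as a term in the model, and higher and lower below mean higher and lower in lung among the called genes. Log2 fold changes carry a standard error from that test (n = 2 libraries an origin). Where an origin had no read, the fold is a bound computed from 3 reads over its 2 libraries. Where it had 1 to 3 reads, the ratio of the origins' CPM is given with an exact interval that covers counting error only.

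Fibroblasts make and remodel connective tissue, and they do so differently from organ to organ. They keep a record of where in the body they arose in their transcription factors, above all the homeobox genes of the Hox clusters, whose order along the chromosome follows the body axis from front to back and limb or tail from root to tip. They also send and receive signals through secreted ligands, their antagonists and cell surface receptors, and they can answer viral nucleic acid with interferon. Levels of RNA in a bulk culture sum over all cells in it, so that fewer cells of a type and less RNA per cell cannot be told apart.

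Gata4, the gene that the labels name as the target of Ad-Cre, encodes a zinc finger transcription factor of the heart, gut and other internal organs. It had 19.4 and 14.8 CPM in lung, against 0.0602 and 0.0316 CPM (2 reads and 1 read) in tail tip. In the cardiac libraries, whose CPM here are of the unscaled library, it had 152 and 141 CPM. Its level was not lower in the library labelled Ad-Cre than in the library labelled Ad-GFP in any of the origins. Which stretch of the gene would be removed is not given in the sources used here, so a count over the whole gene does not check that label. The virus enters the comparison below only as a block shared by 1 library of each origin.

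The labelled cell types were checked against marker genes before the comparison. Of 16 fibroblast markers, 16 in lung and 15 in tail tip had at least 1 CPM in both libraries, and their summed level was 12973 and 12236 CPM in lung, against 37358 and 39322 CPM in tail tip. Of these, 13 were lower and 1 was higher. The 18 lung mesenchyme markers did not single out the lung libraries: of 14 that could be tested, 4 were higher and 7 lower. Tcf21 and Nkx2-3, transcription factors of lung mesenchyme, had no read in any of the 4 libraries, and Tbx4, which patterns the lung bud, had 2.25 and 2.63 CPM in lung, against 12.8 and 12.7 CPM in tail tip (log2 fold change -2.39 ± 0.24). The lung libraries did carry Tbx5 (10.2 and 8.08 CPM, against no read in tail tip), Foxf1 (17.8 and 19.6 CPM in lung, against 1.90 and 2.65 CPM in tail tip) and Foxf2 (36 and 42.8 CPM in lung, against 1.23 and 1.39 CPM in tail tip), mesenchymal factors of lung and gut. Genes better known from heart also stood higher in them: the troponin gene Tnnt2 had 35.1 and 26.4 CPM in lung, against 0.241 and 0.221 CPM in tail tip. Tbx20 had 6.27 and 6.15 CPM in lung, against 0 and 0.0316 CPM in tail tip. In cardiac libraries Tnnt2 had 52.5 and 72.3 CPM and Tbx20 had 413 and 637 CPM. Tbx5 went the other way, with 1.20 and 2.19 CPM in the cardiac libraries, below its levels in lung. Of 12 cardiomyocyte markers only 3 could be tested, with 2 higher and 1 lower. The 19 skin and tail mesenchyme markers did not single out the tail tip libraries either: of 14 that could be tested, 4 were higher and 6 lower. Their summed level was 699 and 819 CPM in lung, against 857 and 869 CPM in tail tip. Lef1, given below, was among the higher ones. The Hox genes of distal body parts, also given below, were read mainly in tail tip.

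Markers of macrophages and other leukocytes were read almost entirely in tail tip. Their summed level over 18 genes was 22.6 and 31.4 CPM in lung, against 4788 and 5690.0 CPM in tail tip, and 17 of 18 were lower. Lyz2, the lysozyme of macrophages, had 0.434 and 1.35 CPM in lung, against 3375 and 3972 CPM in tail tip. Adgre1, which encodes the F4/80 antigen, had 0 and 0.104 CPM in lung, against 387 and 428 CPM in tail tip (a tail tip over lung ratio of 7365, 95% exact counting interval 2519.8 to 35714). C1qa and C1qb had no read in lung, and C1qc, Tyrobp, Fcgr3, Itgam, Laptm5 and Cd52 had at most 3 reads over both lung libraries. Mrc1 was the exception, with 5.48 and 10.7 CPM in lung, against 5.99 and 3.13 CPM in tail tip, and did not pass the test, though it was called higher without the lung Ad-Cre library (edgeR adjusted p = 0.0481) or the tail tip Ad-Cre library (edgeR adjusted p = 8.93e-05). The part of this RNA in the gene groups that share those genes was not tested. Summed levels were low in all 4 libraries for keratinocyte markers (13.1 and 10.9 CPM in lung, against 5.75 and 5.62 CPM in tail tip), lung epithelium markers (7.46 and 3.73 CPM in lung, against 4.33 and 4.42 CPM in tail tip) and endothelial markers (15.7 and 12.4 CPM in lung, against 36.7 and 39.3 CPM in tail tip). Adipocyte markers came to 21.1 and 16.2 CPM in lung, against 399 and 534 CPM in tail tip, where most of the sum was Lpl, given below.

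Genes of the sex chromosomes set the origins apart as well. Xist, the RNA that silences an X chromosome in female cells, had 0.434 and 1.07 CPM in lung, against 1062 and 1047 CPM in tail tip. The Y-linked genes Ddx3y, Kdm5d, Uty and Eif2s3y had between 0 and 1 read in each lung library and between 189 and 509 reads in each tail tip library. The tail tip libraries thus held both Xist and Y-linked RNA, and the lung libraries held neither at a comparable level. The labels do not state the sex or number of the animals, and these 5 genes were named after their values were seen.

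Of the 17270 genes tested, 12019 (69.6%) were called, 5632 higher (32.6%) and 6387 lower (37%). At least 4-fold changes were reached by 1278 higher genes (7.4%) and 2847 lower genes (16.5%), so that large differences were mostly of genes with less RNA in lung. With at least 1 CPM in both libraries of an origin and no read in the other, 23 genes were found in lung alone and 175 in tail tip alone. At 10 CPM, these were 2 genes (Hsd3b1 and Prdm6) and 38 genes. The lung over tail tip ratio was much the same in both virus pairs, which share no library. The Ad-Cre pair and the Ad-GFP pair had a Pearson correlation of 0.956 across genes (a description, since genes are no replicates), and 89.4% of the tested genes had the same sign in both. With so many genes called, the shares of called genes above are the background for every list below: a list with about 7 in 10 members called, split evenly, looks like the transcriptome as a whole.

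**Figure D1:**
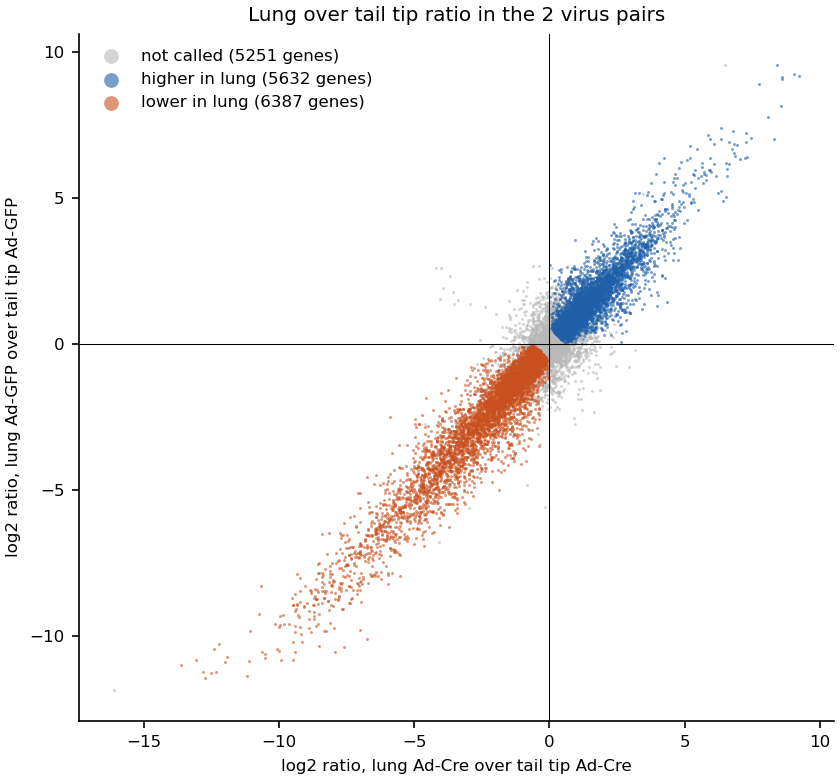
Each point is 1 of 17270 genes, with the log2 ratio of lung over tail tip in the Ad-Cre libraries on the x axis and in the Ad-GFP libraries on the y axis (small prior counts added, so genes with no read have finite values). Blue points are the 5632 genes higher in lung, orange points the 6387 lower in lung and grey points the rest; the called genes lie along the diagonal, and the orange arm reaches further from 0 than the blue arm.

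The genes furthest apart on the lung side included enzymes, transcription factors and surface proteins. Ranked by the fitted fold change, the first were Hsd3b1 (25.8 and 36.1 CPM, no read in tail tip, at least 678-fold higher in lung), a steroid dehydrogenase that makes progesterone and androgen precursors, and Prdm6 (25.1 and 19.2 CPM, no read in tail tip, at least 475-fold higher in lung), a repressor known from smooth muscle. Msln, the surface glycoprotein mesothelin, had 195 and 154 CPM in lung, against 0.301 and 0.190 CPM in tail tip, log2 fold change 9.45 ± 0.23. Others of the 15 furthest genes on the lung side were Il33, an alarmin of the interleukin-1 family, Plac8 (134 and 193 CPM in lung, against 0.331 and 0.190 CPM in tail tip), Areg, an EGF receptor ligand, Trim71 (11.7 and 11 CPM in lung, against 0.0301 and 0.0316 CPM in tail tip), an RNA-binding protein of embryonic cells, Dscam (23.7 and 21.2 CPM in lung, against 0.0903 and 0.190 CPM in tail tip), a cell adhesion molecule of neurons, and the cornified envelope gene Sprr1a (21.3 and 20.8 CPM in lung, against 0 and 0.0948 CPM in tail tip). The other mesothelium markers, summed, did not follow Msln. The summed level of 12 such markers was 199 and 158 CPM in lung, against 38.6 and 39.6 CPM in tail tip, and without Msln it was 4.22 and 3.39 CPM in lung, against 38.3 and 39.4 CPM in tail tip. Of the 4 that could be tested, Msln and Krt19 (2.64 and 1.69 CPM in lung, against 0.482 and 0.316 CPM in tail tip) were higher, and Bnc1 (1.10 and 1.31 CPM in lung, against 8.37 and 6.83 CPM in tail tip) and Cdh3 (0.276 and 0.311 CPM in lung, against 29.2 and 32.1 CPM in tail tip) were lower.

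On the tail tip side, 14 of the 15 first genes by fitted fold change had no read in lung. The fitted value of such a gene depends on the prior count, and its bound is only a minimum. Its rank against genes with a few lung reads, such as Meg3 and Smoc2 (each with a log2 fold change of -12.15, levels below), is therefore uncertain. Among the 15 were genes of phagocytes such as Slfn4 (72.9 and 94.6 CPM), the mycobacterial glycolipid receptor Clec4e (45.8 and 63.2 CPM), the adhesion receptor Cd84 (45.6 and 54.7 CPM), the adaptor Lcp2 (26.3 and 28.8 CPM) and the proton pump subunit Atp6v0d2 (25 and 32.6 CPM). Others have different known roles, and which cells carried their RNA was not tested. Adam33, a metalloprotease of mesenchymal cells, had 42.1 and 41.8 CPM. Dio3, which inactivates thyroid hormone, had 35.9 and 34.7 CPM. Slc13a3, a dicarboxylate carrier, had 32 and 45.9 CPM. Their bounds ran from at least 492-fold lower in lung for Nptx2, a pentraxin, to at least 1511-fold lower in lung for Slfn4.

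**Figure D2:**
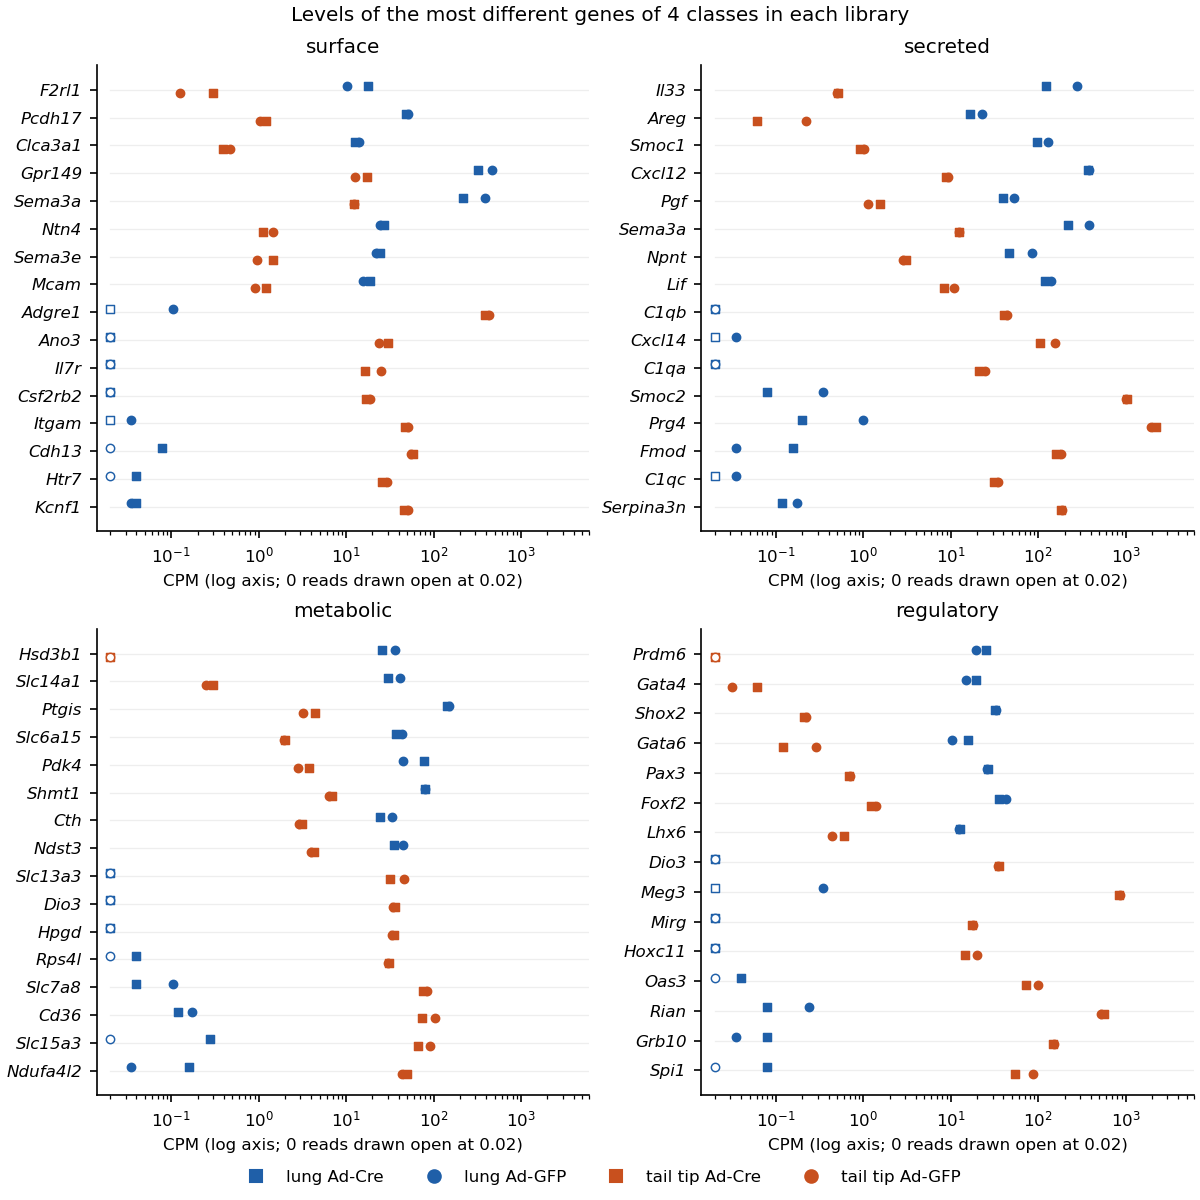
Levels in CPM (log axis) of up to 8 genes furthest apart by fitted fold change in each direction within the surface, secreted, metabolic and regulatory classes; blue marks are lung, orange marks tail tip, squares Ad-Cre, circles Ad-GFP, and open marks at 0.02 stand for 0 reads. In each gene both lung marks lie on the same side of both tail tip marks, and the 2 marks of an origin mostly lie close together.

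The genes for the cell surface were shifted toward tail tip. Of 599 tested genes in the surface lists, 125 were higher and 369 lower, with a median log2 fold change of -1.25 against -0.05 over all tested genes. Receptors, channels and integrins took part, while cadherins were closer to balance, with 13 higher and 15 lower of 33. Of 148 tested receptors coupled to G proteins, 31 were higher and 93 lower (median -1.66), and of 133 tested channel, connexin and aquaporin genes 32 were higher and 79 lower (median -1.42). Some genes on the lung side differed widely. F2rl1, the protease-activated receptor cleaved by trypsin-like enzymes, had 17.9 and 10.3 CPM in lung, against 0.301 and 0.126 CPM in tail tip (log2 fold change 6.02 ± 0.34, adjusted p = 5.82e-16 in edgeR). The orphan receptor Gpr149 had 325 and 466 CPM in lung, against 17.1 and 12.8 CPM in tail tip (log2 fold change 4.71 ± 0.22). Clca3a1, a secreted modulator of chloride channels, had 12.5 and 14 CPM in lung, against 0.391 and 0.474 CPM in tail tip (log2 fold change 4.93 ± 0.30).

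Several of the surface genes with at most 3 reads in lung are channels and receptors of excitable cells. Ano3, a member of the anoctamin family, had no read in lung and 30.1 and 23.8 CPM in tail tip (at least 489-fold lower in lung). Kcnf1, a silent potassium channel subunit, had 0.0395 and 0.0346 CPM in lung, against 45.8 and 50.4 CPM in tail tip, a tail tip over lung ratio of 1304, 95% exact counting interval 361 to 10774. Htr7, a serotonin receptor that raises cyclic AMP, had 0.0395 and 0 CPM in lung, against 25.9 and 29 CPM in tail tip, a tail tip over lung ratio of 1489.6, 95% exact counting interval 267 to 58869. Scn7a, a sodium-sensing channel, had 0.0395 and 0.0691 CPM in lung, against 43 and 54 CPM in tail tip, a tail tip over lung ratio of 875, 95% exact counting interval 299 to 4244. In each of these genes both tail tip libraries lay above 20 CPM and neither lung library reached 0.1 CPM.

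Leukocyte receptors made up another share of the tail tip surface. Of 66 tested cytokine and tumour necrosis factor family receptors, 12 were higher and 44 lower. Il7r (16.4 and 25.1 CPM) and Csf2rb2 (16.9 and 19 CPM), which bind interleukin-7 and interleukin-3, had no read in lung. The receptor for colony stimulating factor 1, Csf1r, had 4.62 and 3.63 CPM in lung, against 187 and 235 CPM in tail tip (log2 fold change -5.68 ± 0.18). The chemokine receptor Cxcr4 had no read in lung and 6.50 and 9.54 CPM in tail tip (at least 144-fold lower in lung). The chemerin receptor Cmklr1 had no read in lung and 9.66 and 10.6 CPM in tail tip (at least 183-fold lower in lung). Of 26 integrins 5 were higher (9 without the lung Ad-GFP library) and 16 lower, led by the leukocyte subunits Itgam (0 and 0.0346 CPM in lung, against 47.7 and 50.6 CPM in tail tip), Itgal (0.197 and 0.0346 CPM in lung, against 66.1 and 86.2 CPM in tail tip), Itgax (0.276 and 0 CPM in lung, against 43.7 and 60.04 CPM in tail tip) and Itgb2 (2.13 and 0.967 CPM in lung, against 194 and 244 CPM in tail tip). The summed macrophage markers given above moved with these receptors and integrins, and their part was not tested.

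Receptors and ligands of axon guidance, which also steer fibroblasts and vessels, differed in both directions, with more members lower than higher. Of 29 tested semaphorins, plexins and neuropilins, 7 were higher and 17 lower. The secreted repellent Sema3a had 219.8 and 384 CPM in lung, against 12.3 and 12.3 CPM in tail tip (log2 fold change 4.57 ± 0.18). Sema3e, which acts through plexin D1, had 24.3 and 21.9 CPM in lung, against 1.47 and 0.948 CPM in tail tip (log2 fold change 4.26 ± 0.23). On the tail tip side stood the membrane-bound Sema4d (0.434 and 0.311 CPM in lung, against 46 and 64.2 CPM in tail tip, log2 fold change -7.21 ± 0.25) and the receptor Plxnc1 (0.395 and 0.380 CPM in lung, against 23.8 and 26.1 CPM in tail tip, log2 fold change -6.00 ± 0.27). The summed macrophage markers moved with Sema4d and Plxnc1, and the part of those cells was not tested. Of 19 tested Slit, Robo, netrin and Unc5 genes, 3 were higher and 13 lower (median -2.06). Ntn4, a laminin-related netrin of basement membranes, had 27.2 and 24.3 CPM in lung, against 1.11 and 1.45 CPM in tail tip (log2 fold change 4.32 ± 0.23). Ntng2, a membrane-anchored netrin, had 0.474 and 0.346 CPM in lung, against 6.71 and 9.54 CPM in tail tip (log2 fold change -4.30 ± 0.36). The Robo ligand Slit3 had 26.4 and 27.7 CPM in lung, against 363 and 340.4 CPM in tail tip (log2 fold change -3.70 ± 0.14). Slit2, named after its values were seen, had 207 and 265 CPM in lung, against 40.7 and 40.9 CPM in tail tip (log2 fold change 2.52 ± 0.14). Both lung libraries therefore had more Slit2 and less Slit3 than either tail tip library.

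Ephrin signalling, by which neighbouring cells repel or sort, was mostly a tail tip trait: 12 of 19 tested genes were lower and 3 higher. Epha4 had 0.158 and 0.138 CPM in lung, against 72.2 and 72.2 CPM in tail tip (log2 fold change -8.90 ± 0.26). Epha3 had 5.96 and 7.53 CPM in lung, against 62.8 and 65.2 CPM in tail tip (log2 fold change -3.25 ± 0.16). The ligand Efnb1 had 11.9 and 10.3 CPM in lung, against 108 and 116 CPM in tail tip (log2 fold change -3.34 ± 0.15). Cadherins, which join like cells, had 13 members higher and 15 lower of 33 (7 higher in DESeq2). Pcdh17 (47.7 and 51.4 CPM in lung, against 1.20 and 1.04 CPM in tail tip) and VE-cadherin Cdh5 (6.94 and 5.53 CPM in lung, against 0.301 and 0.158 CPM in tail tip) stood on the lung side. The anchored cadherin Cdh13 (0.0789 and 0 CPM in lung, against 58 and 54.6 CPM in tail tip) and Cdh18 (0.986 and 0.415 CPM in lung, against 40.5 and 32 CPM in tail tip) stood on the tail tip side. The log2 fold change was 5.46 for Pcdh17 and -5.73 for Cdh18, so the family differed in both directions. Mcam, a surface protein of mural cells, had 18.5 and 15.5 CPM in lung, against 1.20 and 0.916 CPM in tail tip (log2 fold change 4.01 ± 0.25). In the marker lists that hold Mcam and Cdh5, the members that were called mostly went the other way. Of 13 tested smooth muscle and pericyte markers, with Mcam, 3 were higher and 9 lower. Of 9 tested endothelial markers, with Cdh5, 1 was higher, 4 were lower and 4 were not called.

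Surface proteins that serve to sort fibroblasts also differed. Of 29 such genes, 4 were higher and 19 lower. Ly6a, the stem cell antigen Sca-1 of mice, had 3.0 and 4.11 CPM in lung, against 289.7 and 229 CPM in tail tip (log2 fold change -6.17 ± 0.19). The peptidase Anpep (CD13) had 1.26 and 1.93 CPM in lung, against 126 and 135 CPM in tail tip (log2 fold change -6.35 ± 0.19). The adhesion molecule Icam1 had 2.49 and 1.11 CPM in lung, against 61.9 and 74.7 CPM in tail tip (log2 fold change -5.28 ± 0.30). Endoglin Eng, an accessory receptor for TGF-beta, had 1.82 and 1.55 CPM in lung, against 59.3 and 60.5 CPM in tail tip (log2 fold change -5.15 ± 0.19). The receptor genes for TGF-beta and BMP moved together but less far, with 9 of 13 lower and 0 higher (3 without the lung Ad-Cre library, 1 without the tail tip Ad-Cre library): Tgfbr2 had 78.2 and 67.8 CPM in lung, against 264 and 267 CPM in tail tip (log2 fold change -1.87 ± 0.13). Of 12 surface proteoglycans 9 were lower and 0 higher, among them the glypican Gpc4 (4.81 and 5.08 CPM in lung, against 130.2 and 131 CPM in tail tip).

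Notch1 and Notch3, receptors that read ligands on adjoining cells, were lower, with Notch1 at 1.22 and 0.795 CPM in lung, against 70.5 and 72.9 CPM in tail tip (log2 fold change -6.16 ± 0.21) and Notch3 at 1.22 and 1.0 CPM in lung, against 59.7 and 56.5 CPM in tail tip (log2 fold change -5.71 ± 0.20). Of 13 tested Notch pathway genes 8 were lower and 2 higher. Among 30 receptor tyrosine kinases 15 were lower and 6 higher. The lower ones included Ret, the receptor of the glial cell line-derived neurotrophic factor family (0.316 and 0.0691 CPM in lung, against 20.1 and 18.1 CPM in tail tip, log2 fold change -6.66 ± 0.34), and Kdr, a receptor for vascular endothelial growth factor (0.513 and 0.207 CPM in lung, against 16.5 and 18.4 CPM in tail tip, log2 fold change -5.62 ± 0.31). Higher ones, named after their values were seen, were Met, the receptor of hepatocyte growth factor (162 and 205 CPM in lung, against 25.6 and 25.8 CPM in tail tip, log2 fold change 2.82 ± 0.14), and Egfr (141 and 142 CPM in lung, against 50.1 and 51.3 CPM in tail tip, log2 fold change 1.48 ± 0.13).

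Genes that present peptides to T cells by MHC class I were mostly lower, 16 of 17 with 0 higher (1 without the lung Ad-GFP library; median -2.59). The peptide pump Tap1 had 0.868 and 0.829 CPM in lung, against 80.1 and 90.9 CPM in tail tip (log2 fold change -6.65 ± 0.20). The immunoproteasome subunit Psmb8 had 0.197 and 0.242 CPM in lung, against 29.7 and 33.4 CPM in tail tip (log2 fold change -7.14 ± 0.28). H2-Q6 and H2-Q7, which share near-identical sequence, so that reads may be split between them, were also lower: H2-Q6 had 0 and 0.104 CPM in lung, against 4.24 and 4.71 CPM in tail tip. H2-Q7 had 0.0395 and 0 CPM in lung, against 4.88 and 6.60 CPM in tail tip. These genes are induced by interferon and are also strongly transcribed in macrophages, and the summed macrophage markers moved with them; their part was not tested.

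**Figure D3:**
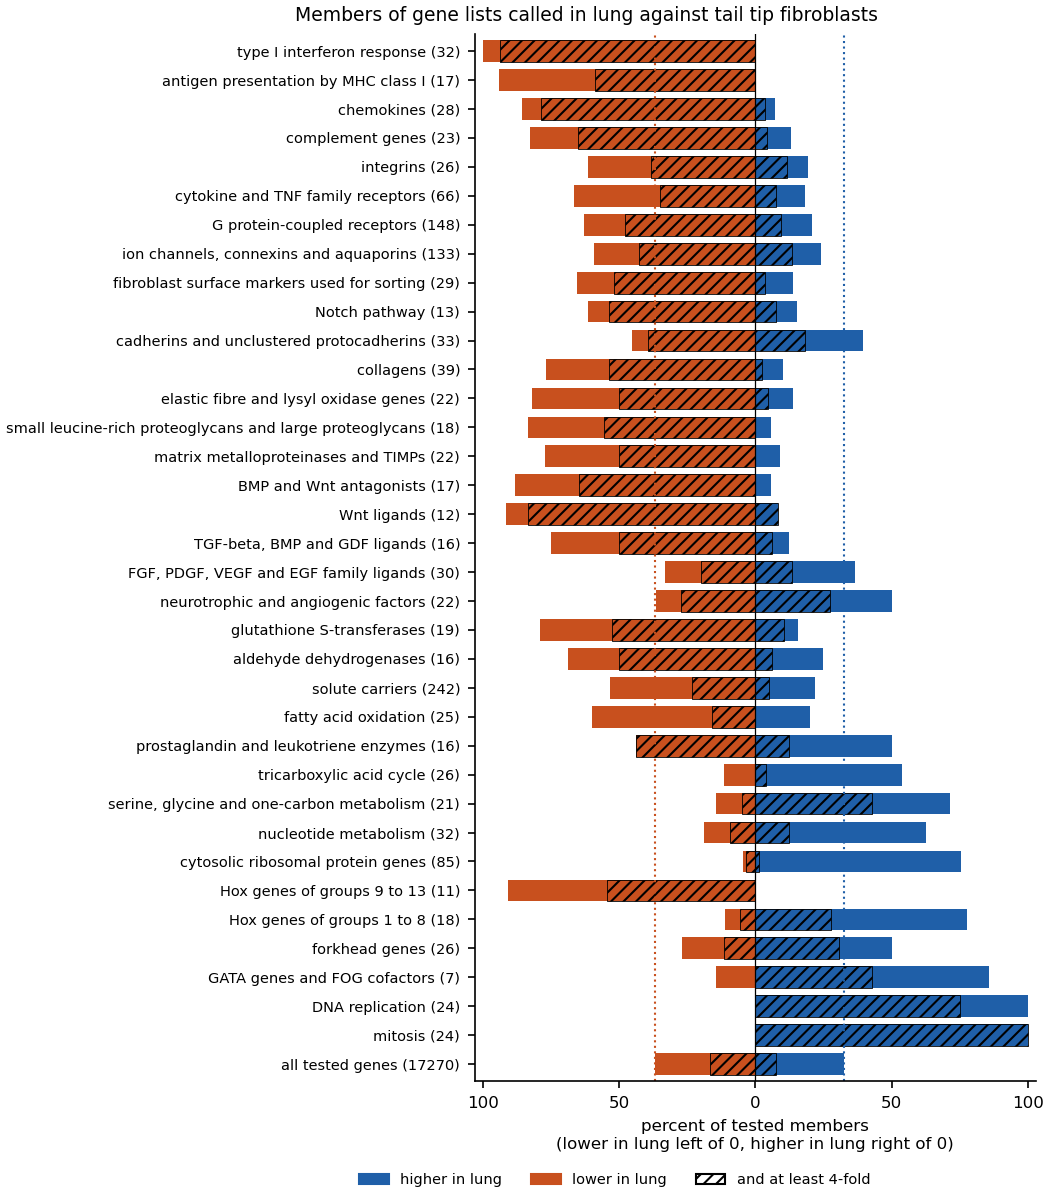
For 35 gene lists and for all tested genes, the percent of tested members higher in lung (blue, right of 0) and lower in lung (orange, left of 0), with the number tested in brackets; hatching marks members that also differed at least 4-fold. Dotted lines give the shares over all tested genes, 32.6% and 37%; mitosis and DNA replication reach 100% on the right and type I interferon genes 100% on the left.

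Secreted proteins leaned furthest toward tail tip of the 4 classes. Of 374 tested genes, 63 were higher and 258 lower, with a median log2 fold change of -1.99. The matrix was part of this. Of 39 collagens 30 were lower and 4 higher, with a median of -2.19. The higher collagens numbered 2 without the lung Ad-Cre library, 1 without the tail tip Ad-GFP library and 2 without the tail tip Ad-Cre library. Col15a1, a collagen that bridges basement membrane and stroma, had 0 and 0.0346 CPM in lung, against 22.5 and 29.1 CPM in tail tip, a tail tip over lung ratio of 1396, 95% exact counting interval 250.2 to 55167. Col14a1, which binds to fibril surfaces, had 0.434 and 0.276 CPM in lung, against 50.7 and 54.1 CPM in tail tip (log2 fold change -7.21 ± 0.24). The fibrillar gene Col5a1 (451 and 347 CPM in lung, against 5168 and 5377 CPM in tail tip, log2 fold change -3.74 ± 0.16) and the microfibrillar Col6a1 (120.3 and 112 CPM in lung, against 2485 and 2839 CPM in tail tip, log2 fold change -4.52 ± 0.16) were lower as well. Col4a4, a basement membrane chain, was among the 4 higher members, with 3.08 and 2.94 CPM in lung, against 0.181 and 0.158 CPM in tail tip (log2 fold change 4.12 ± 0.50). Basement membrane genes as a list did not lean, with 7 of 22 higher, 10 lower and a median of -0.04.

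The proteins that finish and organise fibres followed the collagens. Of 22 elastic fibre and lysyl oxidase genes 18 were lower and 3 higher. Lox, the enzyme that cross-links collagen and elastin, had 190.3 and 249 CPM in lung, against 7369.8 and 7449 CPM in tail tip (log2 fold change -5.09 ± 0.17). Ltbp2, a microfibril protein, had 44.4 and 31.1 CPM in lung, against 2622 and 2329 CPM in tail tip (log2 fold change -6.05 ± 0.17). Mfap2, another microfibril protein, had 0 and 0.104 CPM in lung, against 13.8 and 15.8 CPM in tail tip, a tail tip over lung ratio of 268, 95% exact counting interval 91.4 to 1301. Of 18 proteoglycans of the matrix 15 were lower and 1 higher. Lubricin, encoded by Prg4, had 0.197 and 1.0 CPM in lung, against 2249 and 1953 CPM in tail tip (log2 fold change -11.72 ± 0.49, adjusted p = 2.03e-05 in edgeR). Fibromodulin, encoded by Fmod, had 0.158 and 0.0346 CPM in lung, against 161 and 184 CPM in tail tip (log2 fold change -10.81 ± 0.27). Prelp had 0.197 and 0.207 CPM in lung, against 104 and 73.9 CPM in tail tip (log2 fold change -8.73 ± 0.24).

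Tendon and joint genes were among those high in tail tip. Tnmd, tenomodulin of tendon, had 0 and 0.0346 CPM in lung, against 62.2 and 63.5 CPM in tail tip, a tail tip over lung ratio of 3412, 95% exact counting interval 612 to 134794. Thbs4, a thrombospondin of tendon and muscle, had 0 and 1.35 CPM in lung, against 4719 and 5213 CPM in tail tip, and with adjusted p = 0.0539 in edgeR it missed the threshold despite groups that did not overlap: its 39 lung reads all came from the Ad-GFP library. It passed the threshold when any 1 of the 4 libraries was left out, in a model without the virus term, and in DESeq2 (adjusted p = 3.36e-07). Of 12 tested cartilage, bone and tendon markers 7 were lower and 4 higher.

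The SPARC-related calcium-binding proteins Smoc1 and Smoc2 exchanged places. Smoc1 had 95.5 and 128 CPM in lung, against 0.903 and 1.01 CPM in tail tip (log2 fold change 6.86 ± 0.19). Smoc2 had 0.0789 and 0.346 CPM in lung, against 1030.5 and 1009 CPM in tail tip (log2 fold change -12.15 ± 0.26). Each was at or near 1 CPM or less in the origin where it was low. Npnt, nephronectin, a ligand of integrin alpha 8, had 46.4 and 85.4 CPM in lung, against 3.07 and 2.81 CPM in tail tip (log2 fold change 4.42 ± 0.21). Ccn5, a matricellular protein of the CCN family, had 1.38 and 1.28 CPM in lung, against 407 and 387 CPM in tail tip (log2 fold change -8.22 ± 0.19). Over the whole list of 28 matricellular genes 4 were higher and 19 lower.

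Enzymes that cut the matrix and their inhibitors were lower too, 17 of 22 metalloproteinases and TIMPs with 2 higher (1 without the lung Ad-GFP library). Mmp12, the elastase of macrophages, had 0.0789 and 0.207 CPM in lung, against 146 and 177 CPM in tail tip (log2 fold change -10.07 ± 0.25). Mmp23 had 0.474 and 0.138 CPM in lung, against 68.7 and 70.4 CPM in tail tip (log2 fold change -7.86 ± 0.26). Of 24 serpins 16 were lower and 3 higher (5 without the lung Ad-Cre library): Serpina3n had 0.118 and 0.173 CPM in lung, against 184 and 189 CPM in tail tip (log2 fold change -10.27 ± 0.25). Serpine2, an inhibitor of thrombin, had 21.1 and 31.1 CPM in lung, against 1122 and 1089 CPM in tail tip (log2 fold change -5.43 ± 0.17). The macrophage markers moved with Mmp12, and their part was not tested.

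Chemokines, which draw in leukocytes, were mostly tail tip genes. Of 28 tested chemokines 24 were lower and 2 higher (median -4.12). Cxcl12, which retains blood stem cells and lymphocytes in their niches, was the large exception with 367 and 379 CPM in lung, against 8.82 and 9.35 CPM in tail tip (log2 fold change 5.36 ± 0.16). Its receptor Cxcr4 was read only in tail tip. Cxcl14, a chemokine of skin and other epithelia-bearing tissue, had 0 and 0.0346 CPM in lung, against 105 and 155 CPM in tail tip, a tail tip over lung ratio of 7030.4, 95% exact counting interval 1261 to 277719. Within the CXC family, Cxcl3 had 0.0789 and 0.173 CPM in lung, against 20.5 and 18.5 CPM in tail tip (log2 fold change -7.19 ± 0.34). Cxcl16 had 0.237 and 0.242 CPM in lung, against 38.4 and 45.7 CPM in tail tip (log2 fold change -7.44 ± 0.26). The macrophage-made chemokines Ccl3 (0 and 0.0346 CPM in lung, against 17.7 and 18.7 CPM in tail tip) and Ccl6 (0.158 and 0.0346 CPM in lung, against 47 and 33.4 CPM in tail tip) were lower, beside the macrophage markers, whose part was not tested. The same holds for complement, with 19 of 23 genes lower and 3 higher, led by C1qb (no read in lung, 40.8 and 43.9 CPM in tail tip), C1qa, C1qc and the anaphylatoxin receptor C5ar1 (0.0789 and 0 CPM in lung, against 19.2 and 21.3 CPM in tail tip).

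Cytokines of the interleukin and tumour necrosis factor families had 6 of 36 members higher and 22 lower. Il33 had 123 and 276 CPM in lung, against 0.512 and 0.506 CPM in tail tip (log2 fold change 8.55 ± 0.23). Lif, the leukaemia inhibitory factor, had 119 and 138 CPM in lung, against 8.43 and 10.8 CPM in tail tip (log2 fold change 3.75 ± 0.15). The inflammatory cytokines Tnf (0.0789 and 0.104 CPM in lung, against 26.3 and 31.5 CPM in tail tip, log2 fold change -8.24 ± 0.32) and Il1b (0.0395 and 0 CPM in lung, against 9.87 and 10.8 CPM in tail tip, a tail tip over lung ratio of 561, 95% exact counting interval 100.3 to 22179) and the interleukin-27 subunit Ebi3 (no read in lung, 7.37 and 9.76 CPM in tail tip, at least 155-fold lower in lung) were on the tail tip side. Both Il33 libraries of lung lay above 120 CPM, though the Ad-GFP library held over 2 times the level of the Ad-Cre library. Tnf, Il1b and Ebi3 moved with the summed macrophage markers, whose part was not tested.

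Growth factors were divided between the origins. Of 30 tested ligands of the FGF, PDGF, VEGF and EGF families, 11 were higher and 10 lower, and the median, -0.04, was close to that of all genes. Areg, amphiregulin, a ligand of the EGF receptor, had 16.8 and 23 CPM in lung, against 0.0602 and 0.221 CPM in tail tip (log2 fold change 7.13 ± 0.33). Btc had 12.1 and 15.4 CPM in lung, against 1.20 and 1.01 CPM in tail tip (log2 fold change 3.62 ± 0.27). Hbegf had 435 and 367 CPM in lung, against 95.1 and 89.5 CPM in tail tip (log2 fold change 2.12 ± 0.13). Both bind the same receptor and were named after their values were seen. Of the other tested ligands of that receptor, named for completeness, Ereg (88.3 and 122 CPM in lung, against 96.6 and 78.3 CPM in tail tip), Egf (1.34 and 1.21 CPM in lung, against 1.32 and 1.45 CPM in tail tip) and Tgfa (0.750 and 0.173 CPM in lung, against 0.602 and 0.474 CPM in tail tip) did not pass the test. Ereg was called higher without the lung Ad-Cre library (edgeR adjusted p = 0.000928) or the tail tip Ad-Cre library (edgeR adjusted p = 0.0369). Placental growth factor, Pgf, had 39.5 and 52.4 CPM in lung, against 1.54 and 1.14 CPM in tail tip (log2 fold change 5.08 ± 0.21). Vegfd, named after its values were seen, had 7.65 and 8.29 CPM in lung, against 143 and 118 CPM in tail tip (log2 fold change -4.02 ± 0.16). Of 22 neurotrophic and angiogenic factors 11 were higher and 8 lower (median 0.59). The neurotrophin Bdnf (73.7 and 71.5 CPM in lung, against 29 and 27.4 CPM in tail tip) was higher, and pleiotrophin, Ptn (23.7 and 27.5 CPM in lung, against 532 and 598 CPM in tail tip), and the vessel-stabilising angiopoietin Angpt1 (12.1 and 19.3 CPM in lung, against 266 and 243 CPM in tail tip) were lower. These 3 were named after their values were seen.

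Morphogens and their secreted antagonists were mostly tail tip genes. Of 12 Wnt ligands 11 were lower and 1 higher, with a median of -4.21 (-4.01 with the gene that had no read in lung taken at its bound). A second ligand was also higher when any library but lung Ad-Cre was left out. The higher ligand with all 4 was Wnt7b (17.2 and 3.14 CPM in lung, against 0.120 and 0.0316 CPM in tail tip, log2 fold change 6.98 ± 0.45), a Wnt of lung and other epithelia. Wnt16, a ligand of bone and joint, had 0.197 and 0.138 CPM in lung, against 12.7 and 13.2 CPM in tail tip (log2 fold change -6.25 ± 0.36). Of 17 antagonists of BMP and Wnt 15 were lower and 1 higher (median -3.11): Sfrp2, which binds Wnt proteins, had 0.0395 and 0 CPM in lung, against 19.5 and 22.9 CPM in tail tip, a tail tip over lung ratio of 1148, 95% exact counting interval 206 to 45383. Notum, which removes their lipid, had 0.0395 and 0.0346 CPM in lung, against 7.83 and 8.56 CPM in tail tip, a tail tip over lung ratio of 222, 95% exact counting interval 61.2 to 1839. Frzb had 0.276 and 0.311 CPM in lung, against 18.9 and 18.5 CPM in tail tip (log2 fold change -5.97 ± 0.30). TGF-beta family ligands had 12 of 16 lower and 2 higher (4 without the lung Ad-GFP library), such as the activin subunit Inhbb (5.29 and 6.08 CPM in lung, against 98.2 and 118 CPM in tail tip, log2 fold change -4.25 ± 0.16) and Tgfb3 (10.9 and 13.2 CPM in lung, against 93.1 and 96.2 CPM in tail tip, log2 fold change -2.98 ± 0.15). In the insulin-like growth factor axis 10 of 15 genes were lower and 4 higher. The binding protein Igfbp4 had 93.5 and 65.4 CPM in lung, against 2554 and 2752 CPM in tail tip (log2 fold change -5.08 ± 0.17). Pappa, the protease that cleaves it, had 8.60 and 8.53 CPM in lung, against 339.9 and 333 CPM in tail tip (log2 fold change -5.30 ± 0.16).

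Metabolic genes as a class had 287 higher and 342 lower of 823 tested and a median of -0.08. That count includes 85 genes for cytosolic ribosomal proteins, of which 64 were higher and 4 lower. Of the genes that differed at least 4-fold, 47 were higher and 158 lower. The pathways of the class went in different directions. Serine, glycine and one-carbon metabolism, which makes the units for nucleotides and methylation, had 15 of 21 genes higher and 3 lower (median 1.39). Shmt1, the cytosolic serine hydroxymethyltransferase, had 79.4 and 80.6 CPM in lung, against 6.98 and 6.35 CPM in tail tip (log2 fold change 3.58 ± 0.16). Cth, the last enzyme of cysteine synthesis, had 24.5 and 33.1 CPM in lung, against 3.10 and 2.88 CPM in tail tip (log2 fold change 3.25 ± 0.20). The serine synthesis enzymes Phgdh (651 and 556 CPM in lung, against 99.6 and 95.6 CPM in tail tip) and Psat1 (441 and 470.1 CPM in lung, against 59 and 58.6 CPM in tail tip), named after their values were seen, were higher, and Aldh1l1, which removes formyl-folate, was lower (1.54 and 1.73 CPM in lung, against 15.1 and 13.8 CPM in tail tip, log2 fold change -3.14 ± 0.24). In nucleotide metabolism 20 of 32 genes were higher and 6 lower. The lower ones included the adenosine-producing ectoenzyme Nt5e (0.434 and 0.967 CPM in lung, against 8.79 and 10.3 CPM in tail tip, log2 fold change -3.78 ± 0.32).

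Genes of the mitochondrial genome and of the tricarboxylic acid cycle were higher more often than lower. Of 26 tricarboxylic acid cycle genes 14 were higher and 3 lower. The mitochondrial isocitrate dehydrogenase Idh2 had 135 and 127 CPM in lung, against 25.5 and 34.5 CPM in tail tip (log2 fold change 2.14 ± 0.14). Its cytosolic relative Idh1 had 24.5 and 34.9 CPM in lung, against 106 and 95.5 CPM in tail tip (log2 fold change -1.77 ± 0.15). Of 13 mitochondrially encoded genes 10 were higher and 1 lower (0 without the tail tip Ad-Cre library; median 1.34), for instance mt-Nd2 with 3688 and 3682 CPM in lung, against 819.9 and 821 CPM in tail tip (log2 fold change 2.17 ± 0.14). Such genes took 4.40% and 4.72% of all reads in lung, against 1.31% and 1.15% in tail tip. That share also varies with RNA quality and with selection of poly(A) RNA, whose part was not tested. The 83 nuclear-encoded subunits of the respiratory chain had 26 members higher, 18 lower and a median of 0.08. The hypoxia-induced subunit Ndufa4l2 was the furthest of them, with 0.158 and 0.0346 CPM in lung, against 50.1 and 43.9 CPM in tail tip (log2 fold change -8.93 ± 0.30).

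Of 23 glycolysis and lactate genes 13 were lower and 4 higher (2 without either tail tip library). The lactate exporter Slc16a3 had 17.4 and 21.2 CPM in lung, against 208 and 212 CPM in tail tip (log2 fold change -3.45 ± 0.15). The carrier Slc16a1, named after its values were seen, had 157 and 158 CPM in lung, against 32.8 and 34.4 CPM in tail tip (log2 fold change 2.23 ± 0.14). The kinases that inhibit pyruvate dehydrogenase were split: Pdk4, the form induced by fasting, had 77.4 and 44.6 CPM in lung, against 3.73 and 2.81 CPM in tail tip (log2 fold change 4.19 ± 0.17). Pdk1, the form induced by hypoxia, had 6.79 and 6.91 CPM in lung, against 46.7 and 48.7 CPM in tail tip (log2 fold change -2.80 ± 0.16). Of 25 fatty acid oxidation genes 15 were lower and 5 higher (3 without the tail tip Ad-GFP library). Sterol and fatty acid synthesis had 10 higher and 9 lower of 31 and no member past 4-fold; Fasn, fatty acid synthase, had 879 and 842 CPM in lung, against 342 and 312 CPM in tail tip (log2 fold change 1.40 ± 0.13). Of 24 genes of lipid uptake and storage 13 were lower and 7 higher (median -0.47). Among the lower ones was Cd36 at 0.118 and 0.173 CPM in lung, against 73.5 and 104 CPM in tail tip (log2 fold change -9.21 ± 0.25). Lipoprotein lipase Lpl was lower too, at 7.54 and 6.32 CPM in lung, against 338 and 452 CPM in tail tip (log2 fold change -5.82 ± 0.18). Both are also genes of macrophages and fat cells, whose part was not tested. The summed macrophage markers moved with them. Lpl is itself an adipocyte marker and made up most of that list's 399 and 534 CPM in tail tip, so that sum is no separate comparison for it.

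Prostaglandin and leukotriene enzymes differed in both directions. Of 16 tested enzymes of prostaglandins and leukotrienes 8 were higher and 7 lower. Ptgis, prostacyclin synthase, had 143 and 151 CPM in lung, against 4.39 and 3.22 CPM in tail tip (log2 fold change 5.27 ± 0.17), and the cyclooxygenase genes Ptgs1 (195 and 204 CPM in lung, against 80.9 and 67.4 CPM in tail tip, log2 fold change 1.43 ± 0.13) and Ptgs2 (1289 and 1719 CPM in lung, against 519 and 431 CPM in tail tip, log2 fold change 1.66 ± 0.15) were higher by smaller factors. Hpgd, the dehydrogenase that inactivates prostaglandins, had no read in lung and 35.7 and 33.8 CPM in tail tip (at least 629-fold lower in lung). The leukotriene genes Alox5 (0.0789 and 0.0346 CPM in lung, against 6.62 and 7.55 CPM in tail tip) and Alox5ap (0.197 and 0.276 CPM in lung, against 20.8 and 24.1 CPM in tail tip) were lower, as was Fam213b (0 and 0.138 CPM in lung, against 19.1 and 18.3 CPM in tail tip), a prostamide and prostaglandin F synthase. The cyclooxygenase genes were named after their values were seen, and Alox5 and Alox5ap are also leukocyte genes. The summed macrophage markers moved with all the lower genes named here, Hpgd among them, and the part of those cells was not tested.

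Hsd3b1 was read in lung alone, and its near-identical relative Hsd3b6 had 123 and 138 CPM in lung, against 0.391 and 0.569 CPM in tail tip (log2 fold change 8.08 ± 0.21); reads may be shared between them. Cyp7b1, which hydroxylates oxysterols, had 1.46 and 2.42 CPM in lung, against 151 and 135 CPM in tail tip (log2 fold change -6.19 ± 0.20), and Dio3 was read in tail tip alone (at least 639-fold lower in lung). Of 17 retinoid genes 10 were lower and 4 higher (2 without the tail tip Ad-Cre library). Both the synthesis of retinoic acid and its breakdown were among the lower genes: Aldh1a3, which makes it, had 1.34 and 0.484 CPM in lung, against 53.8 and 53 CPM in tail tip (log2 fold change -5.92 ± 0.25). Cyp26b1, which degrades it, had 2.68 and 0.967 CPM in lung, against 54.5 and 54.5 CPM in tail tip (log2 fold change -4.96 ± 0.30). Dhrs3, which returns retinal to retinol, had 2.25 and 2.18 CPM in lung, against 37.9 and 46.2 CPM in tail tip (log2 fold change -4.24 ± 0.19). Vdr, the vitamin D receptor, had 1.18 and 1.11 CPM in lung, against 107 and 93.6 CPM in tail tip (log2 fold change -6.45 ± 0.19).

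Detoxification and transport were mainly higher in tail tip libraries. Of 19 glutathione S-transferases 15 were lower and 3 higher, with Gsta4 at 2.01 and 3.39 CPM in lung, against 39.1 and 40.4 CPM in tail tip (log2 fold change -3.89 ± 0.20). The secreted antioxidants Gpx3 (0.237 and 0.484 CPM in lung, against 71.4 and 79.3 CPM in tail tip, log2 fold change -7.68 ± 0.23) and Sod3 (29.99 and 14.7 CPM in lung, against 457 and 438 CPM in tail tip, log2 fold change -4.40 ± 0.24) were lower, while the NRF2-driven genes Txnrd1 (703 and 764 CPM in lung, against 214 and 249 CPM in tail tip, log2 fold change 1.67 ± 0.13) and Gclm (158 and 132 CPM in lung, against 41.4 and 49.8 CPM in tail tip, log2 fold change 1.66 ± 0.14) were higher. The whole antioxidant list was balanced, 12 higher and 10 lower of 27. Of 242 solute carriers 53 were higher and 129 lower. Slc14a1, a urea channel, had 29.8 and 40.9 CPM in lung, against 0.301 and 0.253 CPM in tail tip (log2 fold change 6.96 ± 0.26). Slc6a15, a carrier of neutral amino acids, had 36.7 and 43.4 CPM in lung, against 1.99 and 1.93 CPM in tail tip (log2 fold change 4.35 ± 0.19). Slc7a8, another neutral amino acid carrier, had 0.0395 and 0.104 CPM in lung, against 76.1 and 84 CPM in tail tip (log2 fold change -10.01 ± 0.28).

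Sugar chains of the matrix had their own enzymes shifted, with 32 of 50 genes for glycosaminoglycan chains lower and 11 higher. Cemip, which starts the breakdown of hyaluronan, had 19.1 and 11.5 CPM in lung, against 495 and 351 CPM in tail tip (log2 fold change -4.81 ± 0.15). Sulf2, which trims sulfates from heparan chains outside the cell, had 0.986 and 0.311 CPM in lung, against 178 and 177 CPM in tail tip (log2 fold change -8.14 ± 0.25). Ndst3, which puts sulfate on heparan chains, had 35.2 and 45 CPM in lung, against 4.33 and 4.01 CPM in tail tip (log2 fold change 3.25 ± 0.18). Of 24 genes of arginine, proline and polyamine metabolism 12 were lower and 8 higher. Ass1, argininosuccinate synthase, had 12.2 and 13.2 CPM in lung, against 300.0 and 287 CPM in tail tip (log2 fold change -4.53 ± 0.15). Ckb, brain-type creatine kinase, had 4.18 and 3.59 CPM in lung, against 89.3 and 107 CPM in tail tip (log2 fold change -4.66 ± 0.17).

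The regulatory class was balanced in number, 220 higher and 217 lower of 540 tested. Some of its families were balanced too, such as homeobox genes outside the Hox clusters (26 higher and 28 lower of 64). The AP-1, CEBP, MAF and NFI genes had 23 higher and 21 lower of 64. Other families were not balanced, among them the Hox genes. Of 18 tested genes of groups 1 to 8, 14 were higher and 2 lower (4 without the lung Ad-GFP library; median 1.11). Hoxa3 had 21.7 and 17.4 CPM in lung, against 1.32 and 1.39 CPM in tail tip (log2 fold change 3.84 ± 0.23). Hoxa4 had 6.16 and 4.80 CPM in lung, against 0.692 and 0.474 CPM in tail tip (log2 fold change 3.23 ± 0.36). Hoxa5, which is needed for lung development, had 16.9 and 19.1 CPM in lung, against 2.26 and 2.53 CPM in tail tip (log2 fold change 2.91 ± 0.22). Of 11 tested genes of groups 9 to 13, 10 were lower and 0 higher (median -6.49). Hoxc11 (14.4 and 19.8 CPM), Hoxa11 (7.10 and 6.16 CPM) and Hoxa13 (5.54 and 5.40 CPM) had no read in lung, and Hoxc11 was at least 308-fold lower in lung.

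Within the HoxC cluster the difference varied along the gene order. Hoxc4 had 8.05 and 6.81 CPM in lung, against 4.21 and 5.15 CPM in tail tip (log2 fold change 0.67 ± 0.24). Hoxc5 had 0.986 and 0.760 CPM in lung, against 2.68 and 2.65 CPM in tail tip (log2 fold change -1.62 ± 0.39). Hoxc6 had 21.6 and 15.4 CPM in lung, against 3.97 and 4.23 CPM in tail tip (log2 fold change 2.15 ± 0.21). Transcripts of Hoxc4, Hoxc5 and Hoxc6 overlap, so reads may be split between them. Hoxc8 had 0.118 and 0 CPM in lung, against 4.21 and 4.58 CPM in tail tip, a tail tip over lung ratio of 79.5, 95% exact counting interval 26.9 to 388. Hoxc9 had 2.60 and 2.38 CPM in lung, against 4.73 and 5.97 CPM in tail tip (log2 fold change -1.09 ± 0.29). Hoxc10 had 0.276 and 0.276 CPM in lung, against 25 and 25.4 CPM in tail tip (log2 fold change -6.49 ± 0.28). Hoxc12 had 0 and 0.138 CPM in lung, against 43.6 and 48.4 CPM in tail tip (log2 fold change -9.22 ± 0.33). Hoxc13, a gene of nails and hair, had 0.158 and 0.104 CPM in lung, against 46.5 and 51.3 CPM in tail tip (log2 fold change -8.52 ± 0.28). The lung libraries thus lay above the tail tip libraries at Hoxc4 and Hoxc6 and below them at Hoxc5 and from Hoxc8 on. Hoxc4 was no longer called without the tail tip Ad-Cre library (edgeR adjusted p = 0.135), in DESeq2 (adjusted p = 0.149) or with all 6 libraries in the model (edgeR adjusted p = 0.427). No HoxD gene had enough reads to be tested, and Hoxb13 had 3.63 and 2.97 CPM in lung, against 13.5 and 12.2 CPM in tail tip (log2 fold change -1.97 ± 0.22). The genes of this paragraph beyond those of the naming rule were added after their values were seen.

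Other transcription factors were higher in the lung than in the tail tip libraries. Shox2, a homeobox gene of limb and heart, had 31.6 and 32.9 CPM in lung, against 0.211 and 0.221 CPM in tail tip (log2 fold change 7.20 ± 0.27). Pax3, a factor of muscle and neural crest, had 27 and 25.7 CPM in lung, against 0.692 and 0.695 CPM in tail tip (log2 fold change 5.24 ± 0.24). Lhx6 had 12.9 and 12.4 CPM in lung, against 0.602 and 0.442 CPM in tail tip (log2 fold change 4.59 ± 0.30). Lef1, which carries Wnt signals to DNA, had 14 and 12 CPM in lung, against 0.271 and 0.126 CPM in tail tip (log2 fold change 6.00 ± 0.35). Gata6, a partner of Gata4 in internal organs, had 15.8 and 10.3 CPM in lung, against 0.120 and 0.284 CPM in tail tip (log2 fold change 5.97 ± 0.37). In the cardiac libraries, in CPM of the unscaled library, Gata6 had 43.8 and 83.4 CPM, above its levels in lung. Of 7 GATA genes and cofactors 6 were higher and 1 lower, the lower one being Trps1 (22.7 and 23.8 CPM in lung, against 81.6 and 84.7 CPM in tail tip, log2 fold change -1.84 ± 0.14). Forkhead genes had 13 of 26 higher and 7 lower. The orphan nuclear receptor Nr2f1 had 35.7 and 30.7 CPM in lung, against 2.59 and 3.95 CPM in tail tip (log2 fold change 3.35 ± 0.20). Klf5 had 64 and 54.8 CPM in lung, against 7.19 and 8.78 CPM in tail tip (log2 fold change 2.89 ± 0.16).

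Tail tip libraries had their own set. Meox2, a mesoderm homeobox gene, had 0 and 0.0691 CPM in lung, against 39.7 and 35.1 CPM in tail tip, a tail tip over lung ratio of 1017, 95% exact counting interval 281 to 8404. Sox6, a factor of cartilage, had no read in lung and 5.72 and 5.34 CPM in tail tip (at least 100.1-fold lower in lung). Ebf3 had 0.0395 and 0.0346 CPM in lung, against 13.6 and 13.9 CPM in tail tip, a tail tip over lung ratio of 374, 95% exact counting interval 103 to 3090.2. Tshz2 had 0.474 and 0.138 CPM in lung, against 87 and 87.7 CPM in tail tip (log2 fold change -8.19 ± 0.25). Ahrr, the repressor of the aryl hydrocarbon receptor, had 0.158 and 0.104 CPM in lung, against 40.6 and 41.4 CPM in tail tip (log2 fold change -8.27 ± 0.29). A factor of leukocytes was among them: Spi1, which sets the macrophage fate, had 0.0789 and 0 CPM in lung, against 53.7 and 87.5 CPM in tail tip, a tail tip over lung ratio of 1906, 95% exact counting interval 527 to 15739, and missed the threshold without the lung Ad-GFP library (edgeR adjusted p = 0.0897) or the lung Ad-Cre library (edgeR adjusted p = 0.0811). It moved with the summed macrophage markers, whose part was not tested.

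Genes of the cell cycle were higher in lung with no exception in either list. All 24 mitosis genes were higher, each at least 4-fold, with a median log2 fold change of 3.19, and all 24 DNA replication genes were higher, 18 of them at least 4-fold, with a median of 2.45. Mki67, the proliferation antigen, had 1417 and 1244 CPM in lung, against 99.1 and 106 CPM in tail tip (log2 fold change 3.70 ± 0.15, adjusted p = 1.53e-19 in edgeR). The mitotic kinesins Kif23 (228 and 186 CPM in lung, against 14.5 and 14.9 CPM in tail tip, log2 fold change 3.81 ± 0.15) and Kif20a (286 and 287 CPM in lung, against 19.9 and 21.7 CPM in tail tip, log2 fold change 3.79 ± 0.14) and the primase subunit Prim1 (171 and 153 CPM in lung, against 13 and 10.5 CPM in tail tip, log2 fold change 3.79 ± 0.15) lay furthest apart. Of 17 inhibitors of cyclin-dependent kinases and regulators of senescence, 11 were higher and 5 lower. Higher members were the chromatin and nuclear lamina genes Lmnb1 at 211 and 214 CPM in lung, against 17.2 and 21.3 CPM in tail tip (log2 fold change 3.47 ± 0.15), Hmga1 at 1388 and 1162 CPM in lung, against 128 and 129 CPM in tail tip (log2 fold change 3.31 ± 0.14) and Ezh2 at 179 and 182 CPM in lung, against 25.1 and 23.2 CPM in tail tip (log2 fold change 2.90 ± 0.14). The inhibitor Cdkn1a was among the lower members (56 and 57.2 CPM in lung, against 409.6 and 396 CPM in tail tip, log2 fold change -2.83 ± 0.14). Of 23 targets of p53, a list that includes Cdkn1a, 16 were lower and 4 higher; Trp53inp1 had 1.54 and 2.21 CPM in lung, against 89.3 and 74.4 CPM in tail tip (log2 fold change -5.43 ± 0.19). Of 85 genes for cytosolic ribosomal proteins 64 were higher and 4 lower (8 without the lung Ad-GFP library), by a median of 0.53.

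Promoters of these cell cycle genes are shown because the genes differed together and because the letters that cycle-dependent factors are known to bind can be read in them. The windows come from RefSeq (GRCm38.p6, a build older than that of the counts) and run from 250 bases before to 50 bases after the start of the gene, so that 21 of 24 mitosis genes and 20 of 24 DNA replication genes could be looked up. The element TTTGAA, called CHR, was found on either strand in 16 of 21 mitosis genes (76.2%), against 14.6% of 11471 tested genes with a window, and CCAAT was found in 17 of 21 (81%), against 42.5%. The letters TTTCGCGC, a core of sites for E2F factors, were found in 7 of 20 DNA replication genes (35%), against 0.689%. The motifs do not overlap each other in the windows shown. In Cdc20 (chr4:118437294-118437593, minus strand) and Plk1 (chr7:122159185-122159484, plus strand) capitals mark CHR and CCAAT, and in Mcm5 (chr8:75109259-75109558, plus strand) and Mcm6 (chr1:128359656-128359955, minus strand) they mark the E2F letters. Cdc20, an activator of the anaphase complex, had 147 and 131 CPM in lung, against 14.2 and 18.4 CPM in tail tip. Plk1, a mitotic kinase, had 144 and 128 CPM in lung, against 12.8 and 16.4 CPM in tail tip. Of the helicase subunits, Mcm5 had 207 and 181 CPM in lung, against 46.4 and 44.9 CPM in tail tip. Mcm6 had 338 and 339.9 CPM in lung, against 46.5 and 53 CPM in tail tip. The genes shown were chosen after their values were seen.
Cdc20: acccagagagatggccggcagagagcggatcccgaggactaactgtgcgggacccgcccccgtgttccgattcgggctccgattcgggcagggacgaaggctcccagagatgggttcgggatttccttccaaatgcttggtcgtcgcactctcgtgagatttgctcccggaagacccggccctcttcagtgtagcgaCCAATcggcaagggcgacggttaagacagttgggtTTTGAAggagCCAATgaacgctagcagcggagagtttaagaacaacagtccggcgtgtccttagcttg
Plk1: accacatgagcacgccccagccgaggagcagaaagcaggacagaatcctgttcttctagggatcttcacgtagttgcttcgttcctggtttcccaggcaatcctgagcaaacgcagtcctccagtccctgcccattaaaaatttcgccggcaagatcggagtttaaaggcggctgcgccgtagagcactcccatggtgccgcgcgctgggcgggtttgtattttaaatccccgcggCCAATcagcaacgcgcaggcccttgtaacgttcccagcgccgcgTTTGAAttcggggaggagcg
Mcm5: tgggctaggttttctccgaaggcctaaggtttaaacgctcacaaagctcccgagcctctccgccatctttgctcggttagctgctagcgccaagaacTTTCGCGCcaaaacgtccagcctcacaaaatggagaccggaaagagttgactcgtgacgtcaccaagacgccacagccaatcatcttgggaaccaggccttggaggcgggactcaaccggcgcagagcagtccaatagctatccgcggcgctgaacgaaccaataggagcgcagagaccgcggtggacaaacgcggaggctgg
Mcm6: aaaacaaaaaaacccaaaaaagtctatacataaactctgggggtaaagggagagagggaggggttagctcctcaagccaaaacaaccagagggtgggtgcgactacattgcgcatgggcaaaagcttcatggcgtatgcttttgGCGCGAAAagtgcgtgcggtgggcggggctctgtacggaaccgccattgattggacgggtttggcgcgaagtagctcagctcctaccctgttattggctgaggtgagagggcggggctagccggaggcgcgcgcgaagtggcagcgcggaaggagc

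Genes that answer type I interferon were lower in lung without exception: 32 of 32, 30 of them at least 4-fold, with a median log2 fold change of -4.77. Oas3, which makes the second messenger that activates RNase L, had 0.0395 and 0 CPM in lung, against 71.9 and 100.2 CPM in tail tip, a tail tip over lung ratio of 4653, 95% exact counting interval 835 to 183813. Mx1, a dynamin-like antiviral protein, had 0.0789 and 0.0346 CPM in lung, against 23.2 and 27.7 CPM in tail tip, a tail tip over lung ratio of 460.0, 95% exact counting interval 157 to 2233. Ifi44 had 1.38 and 2.04 CPM in lung, against 265 and 268 CPM in tail tip (log2 fold change -7.28 ± 0.19, adjusted p = 1.35e-23 in edgeR), and Irf7, the factor that amplifies the response, had 1.89 and 2.38 CPM in lung, against 200.1 and 237 CPM in tail tip (log2 fold change -6.67 ± 0.18). Of 13 tested IRF and STAT genes 11 were lower and 0 higher. All 4 libraries had been given an adenovirus. The summed macrophage markers differed in the same direction, and neither their part nor that of the virus dose was tested.

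Promoters of 3 interferon genes, also chosen after their values were seen, are shown for the same reason. The core of the interferon-stimulated response element, GAAA, 2 letters of any kind and GAAA again, was searched on both strands. It was found in 13 of 22 genes of this list that have a RefSeq window (59.1%), against 3.85% of the 11471 tested genes. Ifit1 (chr19:34640639-34640938, plus strand) had 15.3 and 12.2 CPM in lung, against 337 and 382 CPM in tail tip. Its neighbour Ifit3 (chr19:34583279-34583578, plus strand) had 5.17 and 4.77 CPM in lung, against 355 and 411 CPM in tail tip. The ubiquitin-like Isg15 (chr4:156200769-156201068, minus strand) had 9.51 and 9.81 CPM in lung, against 142 and 189 CPM in tail tip. Capitals mark each match, and in Isg15 matches overlap and form 1 stretch.
Ifit1: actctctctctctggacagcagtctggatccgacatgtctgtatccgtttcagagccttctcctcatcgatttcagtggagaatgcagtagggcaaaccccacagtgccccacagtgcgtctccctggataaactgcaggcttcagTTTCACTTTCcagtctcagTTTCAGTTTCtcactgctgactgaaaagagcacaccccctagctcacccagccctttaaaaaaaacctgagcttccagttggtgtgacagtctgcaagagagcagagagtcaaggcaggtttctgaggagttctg
Ifit3: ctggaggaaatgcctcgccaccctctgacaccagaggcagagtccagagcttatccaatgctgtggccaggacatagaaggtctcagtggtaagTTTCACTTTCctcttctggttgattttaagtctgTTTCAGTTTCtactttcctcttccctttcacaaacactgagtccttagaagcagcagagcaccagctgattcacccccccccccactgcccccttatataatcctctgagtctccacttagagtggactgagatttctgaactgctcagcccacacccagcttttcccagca
Isg15: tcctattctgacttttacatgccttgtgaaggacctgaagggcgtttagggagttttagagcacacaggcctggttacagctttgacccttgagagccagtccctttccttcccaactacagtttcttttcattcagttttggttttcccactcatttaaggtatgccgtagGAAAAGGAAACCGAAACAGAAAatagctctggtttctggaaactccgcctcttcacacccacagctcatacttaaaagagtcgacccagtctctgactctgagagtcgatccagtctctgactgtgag

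**Figure D4:**
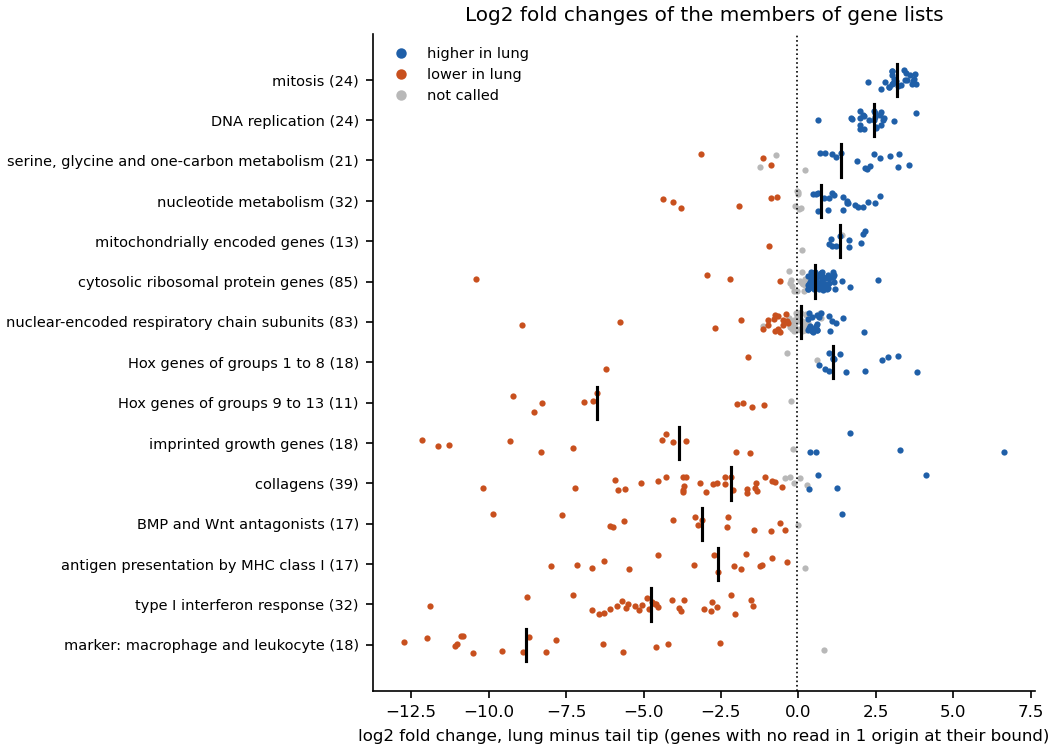
Log2 fold change, lung minus tail tip, of each tested member of 15 lists (blue higher in lung, orange lower, grey not called; vertical placement within a list is random); black bars are list medians, the dotted line the median of all tested genes, and members with no read in 1 origin are drawn at their bound. The mitosis members lie together at a median of 3.19, the interferon members at -4.77, and the Hox groups on either side of 0.

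Imprinted genes, which are read from the maternal or the paternal copy alone, differed widely. Of 18 tested imprinted growth genes 12 were lower and 5 higher (median -3.95, or -3.84 with members that had no read at their bound). The lower ones included 5 neighbours of a single imprinted domain. Meg3 had 0 and 0.346 CPM in lung, against 842 and 858 CPM in tail tip (log2 fold change -12.15 ± 0.39). Rian had 0.0789 and 0.242 CPM in lung, against 560.2 and 521 CPM in tail tip (log2 fold change -11.63 ± 0.26). Mirg had no read in lung and 17.2 and 18.1 CPM in tail tip (at least 320.0-fold lower in lung). Meg3, Rian and Mirg are long RNAs without a protein product. Dlk1 had 0.118 and 0.311 CPM in lung, against 32.8 and 35.6 CPM in tail tip (log2 fold change -7.26 ± 0.28), and Dio3 belongs there too. Grb10, which restrains growth, had 0.0789 and 0.0346 CPM in lung, against 148 and 151 CPM in tail tip, a tail tip over lung ratio of 2709, 95% exact counting interval 927 to 13138. The growth-restraining RNA H19 had 1.46 and 0.415 CPM in lung, against 17.2 and 16.7 CPM in tail tip (log2 fold change -4.26 ± 0.32). Peg10 (149 and 131 CPM in lung, against 15.4 and 13.2 CPM in tail tip, log2 fold change 3.29 ± 0.14) and Peg3 (79.9 and 91.6 CPM in lung, against 30.7 and 23.7 CPM in tail tip, log2 fold change 1.66 ± 0.15), named after their values were seen, were higher.

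The difference between origins was not spread evenly over the chromosomes. Among the 9272 genes averaging 10 CPM or more that the RefSeq table places on a chromosome, the median log2 fold change was 0.08. It was -0.57 on chromosome 12 (307 genes) and -0.54 on chromosome 16 (285 genes), and 0.83 on chromosome 18 (245 genes) and 0.42 on chromosome 10 (461 genes). Both virus pairs gave the same picture: for chromosome 18 the median ratio was 0.80 in the Ad-Cre pair and 0.84 in the Ad-GFP pair, and for chromosome 12 it was -0.58 and -0.61. Between the Ad-Cre and the Ad-GFP library of an origin, no chromosome median lay outside -0.09 to 0.08 in lung or -0.02 to 0.04 in tail tip. These medians are descriptions across genes, which are not replicates, and no cause was tested.

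**Figure D5:**
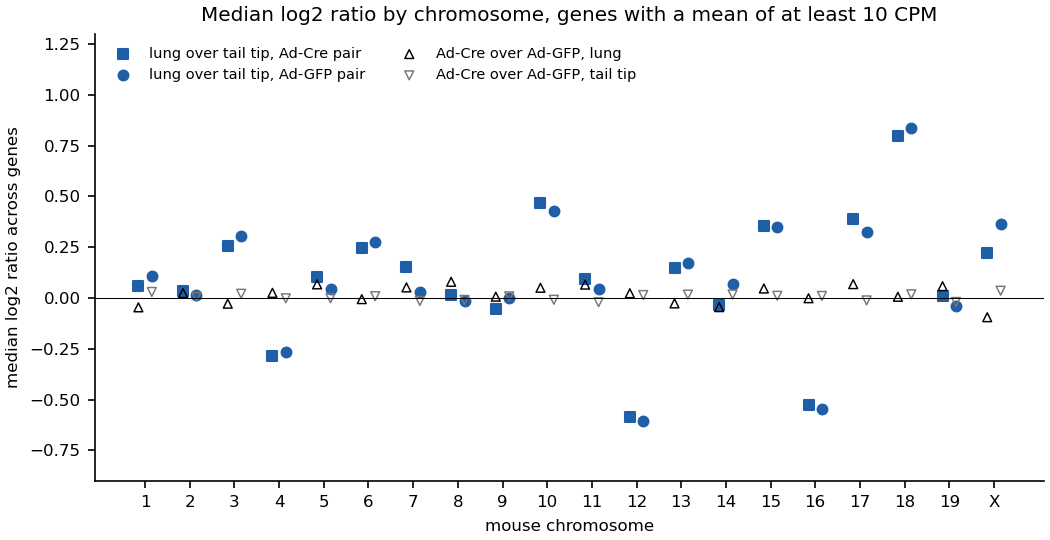
Median log2 ratio across genes on each mouse chromosome: blue marks compare lung with tail tip in the Ad-Cre pair (squares) and the Ad-GFP pair (circles), open triangles compare the Ad-Cre with the Ad-GFP library within lung (upward) and within tail tip (downward). Chromosome 18 lies highest at 0.80 and 0.84 and chromosomes 12 and 16 lowest in both pairs, while the triangles stay near 0.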

How the data were processed

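The deposited table holds whole-number read counts per gene, which the authors made from libraries of poly(A) RNA; the submitters' processing notes name STAR 2.0.7 and mm39, without a role or order, and no label or file header names the counting tool, its annotation or its use of strand. Of 57180 gene identifiers, 51884 were matched to a symbol in a GENCODE M21 table. Genes were filtered with filterByExpr (minimum count 10) and scaled by TMM (factors 0.970 to 1.03), and a model of origin and virus was fitted to 4 libraries with edgeR 4.0.16 (R 4.3.3). It left 1 residual degree of freedom, moderated across genes (median prior degrees of freedom 28.1). Standard errors are the fold change over the square root of the F statistic. Counts of 3 reads correspond to 0.0903 to 0.118 CPM. Reads without molecular identifiers are not independent molecules, so intervals and bounds cover counting error only. Where strand is unknown, a gene and an overlapping antisense gene cannot be told apart. The origins and lists were chosen with earlier results of these data known. The text names the 15 genes furthest apart in each direction among those with at least 10 CPM in both libraries of the higher origin, the 8 furthest in each direction in each class, and list members with the largest change, and says where a gene was added after its values were seen. A few genes that the rule names are not reported here. Alternatives were DESeq2 1.42.0, other scalings, filters and models, and each library left out in turn. Self-tests used simulated data. Coordinates and promoters come from RefSeq on GRCm38.p6, not from the build of the counts.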

Additional observations from a re-analysis of the deposited data

Results flagged for a closer look

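In 30 of 17270 genes, the lung over tail tip ratio differed at least 2-fold in opposite directions in the Ad-Cre and the Ad-GFP pair, and 9 of them had a mean of at least 1 CPM. With 1 library per origin and virus this difference was not tested. Of the 9, 5 encode proteins of endocrine secretory granules. The log2 ratio of lung over tail tip was -4.20 in the Ad-Cre pair and 2.60 in the Ad-GFP pair for Ins2, insulin; -3.95 and 1.91 for Iapp, islet amyloid polypeptide; -3.69 and 2.31 for Pcsk2, a prohormone convertase; -4.01 and 2.61 for Scg2; and -1.97 and 1.02 for Chgb, both granins. Pcsk2 had 0.158 and 1.21 CPM in lung, against 2.83 and 0.190 CPM in tail tip, so the lung Ad-GFP and the tail tip Ad-Cre libraries were the high ones. Summed endocrine markers followed the same order, with 2.45 and 15.6 CPM in lung, against 35.3 and 13.3 CPM in tail tip. For the other 4 genes the ratio was positive in the Ad-Cre pair and negative in the Ad-GFP pair: 1.85 and -1.58 for 4930413G21Rik, 1.21 and -2.27 for Mrps34, 1.77 and -1.19 for Neil2, and 1.24 and -1.51 for Tmem238.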

How the results depend on the processing

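The count of called genes, 12019 (5632 higher, 6387 lower), ranged, apart from leaving out libraries, from 9175 (4050 higher, 5125 lower of 18143) with all 6 libraries in the model to 12481 without the virus term; DESeq2 called 9587. Leaving out a library each time gave 10638 to 13163 genes, 4907 to 6120 higher and 5731 to 7043 lower, in a model of origin alone in which the lone library of an origin is assumed to vary like the others. A call of at least 4-fold left 4125 genes, 1278 higher and 2847 lower. No gene called with all 4 libraries was called in the opposite direction under any of these. Without scaling factors the median log2 fold change of all genes was -0.12, against -0.05, and 44.0% of calls were higher, against 46.9%. Of 251 named genes, 234 had the same direction and call under all alternatives; the calls of Ereg, Hoxc4, Hoxc5, Hoxc9, Mrc1, Spi1 and Thbs4 changed under at least 1. Tgfa, which passed in none, ranged from a log2 fold change of -1.62 to 0.47 with a library left out. The calls changed as well for the 9 genes whose virus pairs ran in opposite directions, and their log2 fold change also turned its sign with the library left out. It ranged from -1.59 to 0.48 for Chgb, -3.73 to 1.19 for Iapp, -3.53 to 1.82 for Ins2, -3.24 to 1.86 for Pcsk2, -3.39 to 1.97 for Scg2, -1.82 to 0.85 for Mrps34, -1.07 to 1.61 for Neil2, -1.08 to 0.92 for Tmem238 and -0.95 to 1.46 for 4930413G21Rik. With all 4 libraries 4930413G21Rik had 0.04, and it turned to -0.030 without scaling factors, -0.0031 without a filter and -0.19 without the virus term. With all 6 libraries, Hoxc4 (edgeR adjusted p = 0.427), Hoxc5 (edgeR adjusted p = 0.0529) and Hoxc9 (edgeR adjusted p = 0.0698) missed the threshold, higher respiratory chain subunits numbered 11 in place of 26, lower ones 10 in place of 18, higher ribosomal protein genes 42 in place of 64, higher Hox genes of groups 1 to 8 numbered 8 in place of 14 and lower ones 1 in place of 2, and higher growth factors 7 in place of 11. In the same model, the higher members numbered 2 in place of 4 for each of collagens, matricellular genes, glycolysis and retinoid genes, 1 in place of 3 for complement, 1 in place of 2 for metalloproteinases and 2 in place of 1 for Wnt ligands. In DESeq2 they numbered 7 in place of 13 for cadherins, 1 in place of 4 for retinoid genes, 1 in place of 3 for serpins and 1 in place of 2 for metalloproteinases, the lower mitochondrially encoded genes numbered 0 in place of 1, and Hoxc4 missed the threshold. With a minimum count of 50, lower receptors coupled to G proteins numbered 61 in place of 93, higher channels 20 in place of 32 and lower growth factors 6 in place of 10. Without a filter, lower Hox genes of groups 1 to 8 numbered 4 in place of 2, higher Wnt ligands 2 in place of 1 and higher glycolysis genes 2 in place of 4, the last also without scaling factors. Without the virus term, higher metalloproteinases numbered 1 in place of 2 and higher TGF-beta and BMP receptors 1 in place of 0. The cause was not tested. No paired analysis was possible because the labels give every library the replicate number 1; the model's virus term is a block of treatment, not of replicate. With 1 library per origin and virus, the precision is limited by their number.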
